A study of Mus musculus with 30 samples.

Results

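The comparison described here set the mouse line labelled iETV2-KDM4A (H188A), given doxycycline (DOX), against the iETV2 line, also given DOX. Its members are the 6 RNA libraries with these descriptions, 3 per line, of 30 samples in the series. The study is about ETV2, also called ER71, and its work with KDM4A, an H3K9 demethylase, in making blood and vessel cells, and its other samples are the same lines without DOX, a KDM4A/4C double knockout with its control, and H3K9me3 ChIP-seq with input. DOX switches on Etv2 in both lines, so the groups share the inducible Etv2 and the drug, and differ by line. By its label the H188A line, as it is called below, also has KDM4A with the H188A substitution. The substitution replaces a histidine of the iron-binding catalytic site. The labels name embryonic stem cells as the cell type of all 6 libraries. The DOX dose, the time in DOX and the way the KDM4A variant is carried are not given in the sources used here. Each group is 1 line, and the H188A line belongs to experiment 2 and iETV2 to experiment 1, so line and experiment cannot be told apart. Whether replicates came from separate cultures is not stated, so a p here measures only how far these samples scatter, which may be technical.

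ETV2 is an ETS-family transcription factor that is switched on briefly in early mesoderm and is required for the first blood and endothelial cells. It acts through genes such as Tal1, Lmo2, Fli1 and Gata2, which in turn drive globins, VEGF receptors and endothelial junction proteins. KDM4A removes methyl groups from trimethylated lysine 9 and lysine 36 of histone H3, and trimethylated H3K9 marks silenced chromatin. Autosomal genes are the subject throughout, because the lines also differ in RNA of the sex chromosomes.

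As examples of promoter sequence, 3 windows from RefSeq (GRCm38.p6) are printed for genes that differed in either direction. Tal1, a required regulator of blood formation, and Hba-x, an embryonic globin, were lower in H188A with DOX. Srgn, a proteoglycan of secretory granules, was higher. Whether promoter sequence has a part in the differences was not tested. Each window runs 5′ to 3′ from 250 bases before to 50 bases after an annotated start. Tal1 lies at chr4:115056176-115056475 on the plus strand, Hba-x at chr11:32276350-32276649 on the plus strand and Srgn at chr10:62527396-62527695 on the minus strand. Capitals mark the ETS core CGGAAG and the GATA motifs AGATAA and TGATAA, searched on both strands.
Tal1: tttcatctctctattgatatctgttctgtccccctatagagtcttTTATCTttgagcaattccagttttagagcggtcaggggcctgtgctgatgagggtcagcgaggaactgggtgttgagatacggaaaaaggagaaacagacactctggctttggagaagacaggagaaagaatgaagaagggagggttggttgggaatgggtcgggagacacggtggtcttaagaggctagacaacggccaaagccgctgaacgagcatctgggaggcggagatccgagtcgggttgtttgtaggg
Hba-x: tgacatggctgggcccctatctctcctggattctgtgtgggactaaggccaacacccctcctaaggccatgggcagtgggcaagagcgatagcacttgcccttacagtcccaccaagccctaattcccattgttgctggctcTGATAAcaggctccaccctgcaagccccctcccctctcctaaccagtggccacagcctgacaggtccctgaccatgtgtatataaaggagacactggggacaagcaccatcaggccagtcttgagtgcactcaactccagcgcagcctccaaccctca
Srgn: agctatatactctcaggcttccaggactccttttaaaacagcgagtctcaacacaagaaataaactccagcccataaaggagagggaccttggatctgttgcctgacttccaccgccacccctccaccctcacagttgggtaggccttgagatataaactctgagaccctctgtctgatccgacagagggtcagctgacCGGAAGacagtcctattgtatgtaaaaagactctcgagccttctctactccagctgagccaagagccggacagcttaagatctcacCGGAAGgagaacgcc
The Tal1 and Hba-x windows each held 1 GATA match, and the Srgn window held 2 ETS matches. Tal1 and Srgn each have another annotated start in the table, whose window, not printed, held no match. The windows of Etv2 and Sox1, also searched and not printed, held no match either. Of all 32851 promoter windows, 16.9% held the ETS core and 18.6% a GATA motif, and the shares were 24.1% and 12.6% in the 18378 windows of tested autosomal genes. Among genes higher in H188A with DOX by a log2 difference of 3 or more, 11.8% of 119 windows held the ETS core and 17.6% a GATA motif. For genes lower by that much the shares were 6.13% and 22.9% of 375 windows. A match describes letters in a window and is not a measured site.

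Libraries held 48233349 to 62095060 counts in H188A with DOX and 55006350 to 68222429 in iETV2 with DOX. Xist, the RNA of the inactive X chromosome, was at 59.6, 47.1 and 39.4 CPM (counts scaled to a common library total) in H188A with DOX and at 3.80, 4.82 and 3.47 CPM in iETV2 with DOX. Summed RNA of 332 Y-linked genes was 1.58 to 2.38 CPM in H188A with DOX and 151 to 164 CPM in iETV2 with DOX. The part of this sex-chromosome difference in the autosomal results was not tested. The 1754 sensory receptor genes, usually silent outside sensory neurons, summed to 34.8 to 92.6 CPM in H188A with DOX and 82.0 to 181 CPM in iETV2 with DOX. Without DOX they summed to 49.1 to 598 CPM in H188A and 65.2 to 182 CPM in iETV2.

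Etv2 RNA did not separate the lines with DOX. Etv2 was at 11.5, 18.6 and 15.5 CPM in the H188A libraries with DOX and at 19.7, 18.1 and 18.2 CPM in the iETV2 libraries with DOX. The groups overlapped, and the log2 difference of -0.20 ± 0.19 (SE) had a 95% interval of -0.61 to 0.20 (adjusted p = 0.437). Without DOX the levels were 0.376 ± 0.270 CPM in H188A and 2.93 ± 0.176 CPM in iETV2 (SD, n = 3 each). Kdm4a was at 83.6, 88.6 and 88.5 CPM in H188A with DOX and at 90.4, 88.2 and 83.4 CPM in iETV2 with DOX, also overlapping (log2 0.08 ± 0.07, adjusted p = 0.363). Counts per gene cannot tell an introduced copy of Etv2 or Kdm4a from the endogenous one, nor show the substitution.

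Across the autosomes 8288 of 20771 tested genes passed an adjusted p under 0.05 by edgeR's quasi-likelihood test: 4661 were higher in H188A with DOX (22.4%) and 3627 lower (17.5%), with a median log2 difference of -0.04. A log2 difference of at least 3 was reached by 153 higher and 476 lower genes, and one of at least 5 by 18 higher and 135 lower. The largest decreases were thus more numerous than the largest increases, although more genes were higher than lower. The median per chromosome lay between -0.09 and 0.14 among genes of at least 5 CPM, and 51.8 to 60.6% of those genes passed on each autosome. Counts given for gene lists below stand beside these shares, and no list was tested against them. Of the 8288 called genes 7835 had groups that did not overlap in CPM, so a lack of overlap is usual among called genes. The same contrast between the libraries without DOX, made in the same fit with a shared filter and estimate of the spread, passed for 8597 genes (41.4%). The test of whether the line difference depended on DOX, called the interaction below, passed for 3373 genes (16.2%); a negative value means that H188A stood lower against iETV2 with DOX than without.

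**Figure D1:**
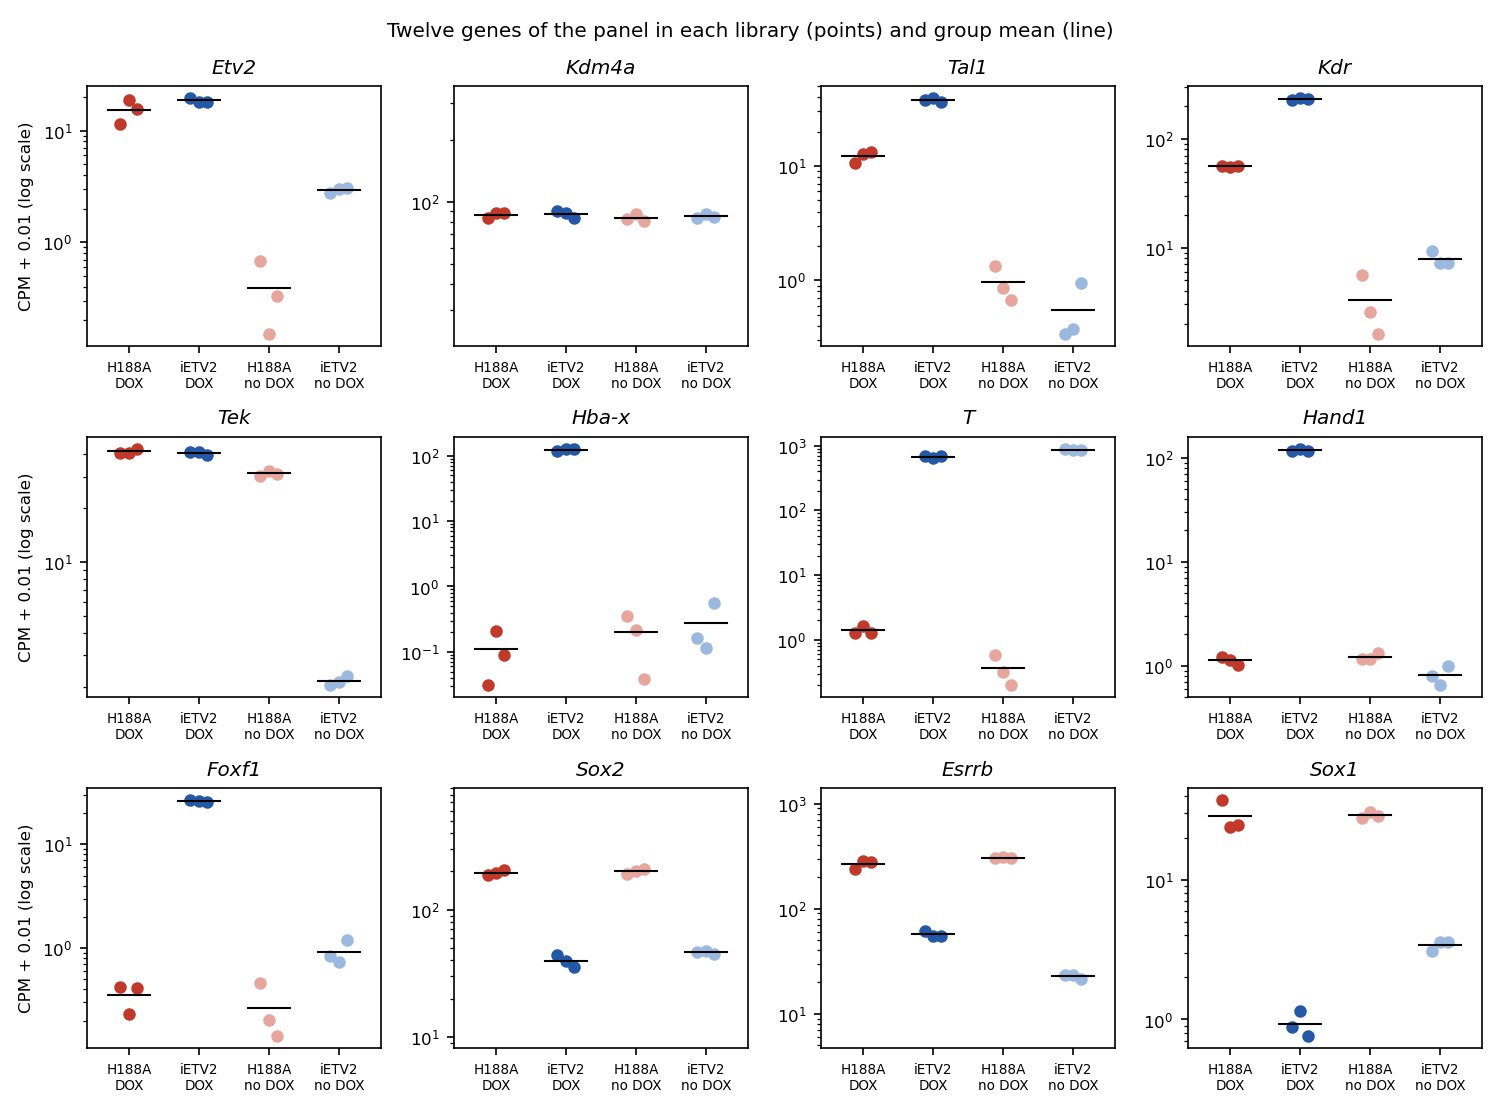
CPM plus 0.01 on log axes for 12 genes in each library, with H188A with DOX at the left of iETV2 with DOX and the libraries without DOX after them; points are libraries and lines are means of 3. Etv2, Kdm4a and Tek overlap between the lines with DOX, while Hba-x, T, Hand1 and Foxf1 are at or under 1.66 CPM in H188A with DOX and at 25.5 CPM or more in iETV2 with DOX.

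The regulators that make hemangiogenic mesoderm were mostly lower in H188A with DOX. Of 21 tested members 14 were lower, 1 was higher and 6 did not pass, with a median log2 difference of -1.11. The number higher was 2 when H188A replicate 2, H188A replicate 3 or iETV2 replicate 1 was left out. Without DOX 11 members were lower and 6 higher (median -0.56), and the interaction was positive for 5 and negative for 5. Lmo2, a partner of TAL1 in the blood-forming complex, was at 5.68, 8.89 and 7.86 CPM in H188A with DOX and at 62.7, 57.5 and 58.6 CPM in iETV2 with DOX (log2 -2.90 ± 0.14, adjusted p = 1.63e-10). Kdr, the VEGF receptor that marks this mesoderm, was at 55.6, 55.6 and 56.0 CPM in H188A with DOX and at 229, 238 and 233 CPM in iETV2 with DOX (-1.97 ± 0.21, adjusted p = 1.74e-06). Neither gene had overlapping groups.

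Tal1 was at 10.5, 12.8 and 13.2 CPM in H188A with DOX and at 37.8, 39.5 and 36.3 CPM in iETV2 with DOX, a log2 difference of -1.54 ± 0.17 (adjusted p = 2.76e-06). Without DOX the Tal1 difference had the other sign, at 0.90. Levels there were low, 0.953 ± 0.347 CPM in H188A and 0.543 ± 0.344 CPM in iETV2. They overlapped within their SD, so this sign is uncertain. Fli1, an ETS factor of blood and endothelium, was at 9.02, 10.1 and 9.94 CPM in H188A with DOX and at 32.9, 31.2 and 33.5 CPM in iETV2 with DOX (-1.65 ± 0.23). Both genes separated the lines in each library. Ets1 (-1.72), Nfatc1 (-1.28), Lyl1 (-1.61), Runx1 (-0.90) and Sox18 (-0.94), all transcription factors of blood or vessels, were lower too. Gata2, a regulator of blood stem cells, was at 5.49 to 8.16 CPM in H188A with DOX and 15.2 to 17.5 CPM in iETV2 with DOX (-1.11 ± 0.32, adjusted p = 0.0126, and 0.094 by DESeq2). Erg, another ETS factor, did not pass, at 1.19 ± 0.341 CPM in H188A with DOX and 3.47 ± 0.619 CPM in iETV2 with DOX (-1.45 ± 0.68, adjusted p = 0.112); its adjusted p was 0.000472 with the 6 DOX libraries fitted alone and 0.0242 when replicate 1 of H188A without DOX was left out of the fit. The member that was higher was Tfec (3.31 ± 0.36), a relative of the MITF factor.

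Sox7, an endothelial and endoderm SOX factor, stood apart from these regulators. It was at 38.8, 20.3 and 19.7 CPM in H188A with DOX and at 27.9, 29.3 and 26.6 CPM in iETV2 with DOX, with overlapping groups and a log2 difference of 0.00 ± 0.24 (95% interval -0.51 to 0.51). Without DOX it was at 16.8 CPM in H188A and 0.601 CPM in iETV2, and the interaction was -4.99 (adjusted p = 1.08e-06). Sox17, its relative, was at 17.2 ± 7.06 CPM in H188A with DOX and 14.6 ± 2.31 CPM in iETV2 with DOX and did not pass (0.33 ± 0.21, adjusted p = 0.238). In both SOX genes the highest H188A value came from replicate 1, and without it the differences were -0.41 for Sox7 and -0.08 for Sox17.

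Endothelial surface and junction genes were split. Of 35 tested members 17 were lower in H188A with DOX, 5 were higher and 13 did not pass, with a median of -0.87. Flt1, a VEGF receptor that binds the ligand without strong signalling, was at 30.5, 23.3 and 22.1 CPM in H188A with DOX and at 105, 110 and 98.8 CPM in iETV2 with DOX (-1.95 ± 0.12, adjusted p = 2.28e-09). Cdh5, the junction protein VE-cadherin, was at 35.3, 27.8 and 24.6 CPM in H188A with DOX and at 63.1, 64.4 and 66.8 CPM in iETV2 with DOX (-1.06 ± 0.13, adjusted p = 9.31e-06). The largest fall was in Aplnr, the receptor of apelin that marks early mesoderm and vessels, at 2.88 ± 0.118 CPM in H188A with DOX and 190 ± 6.98 CPM in iETV2 with DOX (-5.95 ± 0.22). Ptprb (-3.001), a phosphatase of VE-cadherin and TIE2, She (-1.90) and Flt4 (-0.95), the VEGF-C receptor, were also lower.

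Other vessel genes were not among those lower. Tek, the angiopoietin receptor TIE2, was at 40.7, 40.9 and 42.9 CPM in H188A with DOX and at 41.3, 41.1 and 39.8 CPM in iETV2 with DOX (0.12 ± 0.07, 95% interval -0.02 to 0.26, adjusted p = 0.184). Pecam1, an adhesion protein of endothelium that embryonic stem cells also express, was at 50.5, 62.1 and 60.6 CPM in H188A with DOX and at 28.0, 28.3 and 30.2 CPM in iETV2 with DOX (1.10 ± 0.08, adjusted p = 1.38e-08). The groups overlapped for Tek and not for Pecam1. Eng (0.47), a co-receptor of TGF-beta ligands, Mmrn2 (0.58), a matrix protein of vessels, Plvap (0.48), a protein of vessel pores, and the bHLH factor Tal2 (1.97) completed the members that were higher. The call of Plvap ended without H188A replicate 1 or 3 or iETV2 replicate 1 or 2, at 0.39 to 0.52. Without DOX, Tek was at 31.2 CPM in H188A and 2.15 CPM in iETV2, Pecam1 at 52.7 CPM in H188A and 5.76 CPM in iETV2, and Eng at 45.8 CPM in H188A and 6.79 CPM in iETV2. The interaction was negative for 18 of the 35 members and positive for 5. The whole list summed to 371.5 to 380.3 CPM in H188A with DOX and 789.8 to 794.6 CPM in iETV2 with DOX. Its sums without DOX were 224.3 to 271.7 CPM in H188A and 482.1 to 500 CPM in iETV2, so the sum was lower in H188A there too. By member, 14 were higher and 6 lower in H188A without DOX (median 0.63). In such bulk libraries fewer cells of a type and less RNA per cell cannot be told apart.

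In VEGF and Notch signalling 19 of 28 members were lower in H188A with DOX, 4 were higher and 5 did not pass (median -1.08). The libraries without DOX gave 18 lower and 6 higher (median -0.81), and the interaction was positive for 5 and negative for 6. Nrp2, a co-receptor for VEGF-C, was at 52.7, 51.1 and 50.004 CPM in H188A with DOX and at 250, 251 and 231 CPM in iETV2 with DOX (-2.16 ± 0.07), and Plxnd1, a semaphorin receptor of vessels, fell by 2.37 ± 0.09. Without DOX Nrp2 was at 33.4 CPM in H188A and 37.3 CPM in iETV2, and its interaction of -2.05 passed. The Notch ligand Jag1 (-1.99), the ligand-like inhibitor Dll3 (-2.84) and the receptor Notch4 (-2.08) were lower, while Rbpj, the DNA-binding partner of Notch, was higher (364 ± 7.23 CPM in H188A with DOX and 145 ± 5.86 CPM in iETV2 with DOX, 1.42 ± 0.08). The target gene Hes5 (4.18), the ligand Jag2 (0.89) and the glycosyltransferase Mfng (0.66) were higher as well. Notch1 (-0.17), Notch2 (-0.17) and Vegfb (0.17) did not pass; Notch1 passed at -0.24 without iETV2 replicate 3.

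Embryonic globins were far lower in H188A with DOX. Hba-x, the embryonic alpha-type globin, was at 0.0207, 0.200 and 0.0805 CPM in H188A with DOX and at 119, 124 and 126 CPM in iETV2 with DOX (-10.14 ± 0.33, adjusted p = 2.17e-12). Hbb-bh1, an embryonic beta-type globin, was at 0.145, 0.120 and 0.0483 CPM in H188A with DOX and at 80.8, 68.8 and 92.4 CPM in iETV2 with DOX (-9.53 ± 0.33). Without DOX, Hba-x and Hbb-bh1 were at 0.195 and 0.210 CPM in H188A and at 0.267 and 0.184 CPM in iETV2. Hbb-y had 1 count over the 3 H188A libraries with DOX and 837 over the 3 of iETV2; the depth-adjusted ratio, iETV2 over H188A, was 745, with a 95% counting interval of 133 to 29470. Globin genes are near copies of each other and how shared reads were counted is not given, so values of single globins are uncertain.

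Of the 25 primitive blood genes 14 were lower in H188A with DOX, 3 were higher and 8 did not pass, with a median of -2.44 and 0.29 without DOX. Epor, the erythropoietin receptor (-3.53), Ikzf1, a lymphoid and early blood factor (-2.44), and Zfpm1, the GATA1 cofactor FOG1 (-1.81), were among those lower. Gata1 itself is on the X chromosome and was left out of the counts. The members that were higher were Myb (65.2 ± 8.72 CPM in H188A with DOX and 28.0 ± 0.986 CPM in iETV2 with DOX, 1.31 ± 0.10), the gamma-globin repressor Bcl11a (0.81) and the transferrin receptor Tfrc (0.58), with like differences without DOX (1.55, 1.09 and 0.55). Kit (0.30), Car2 (0.16) and Fech (0.07) did not pass, although Kit did at 0.43 and 0.44 without H188A replicate 2 or 3. The interaction was negative for 12 members and positive for 2.

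**Figure D2:**
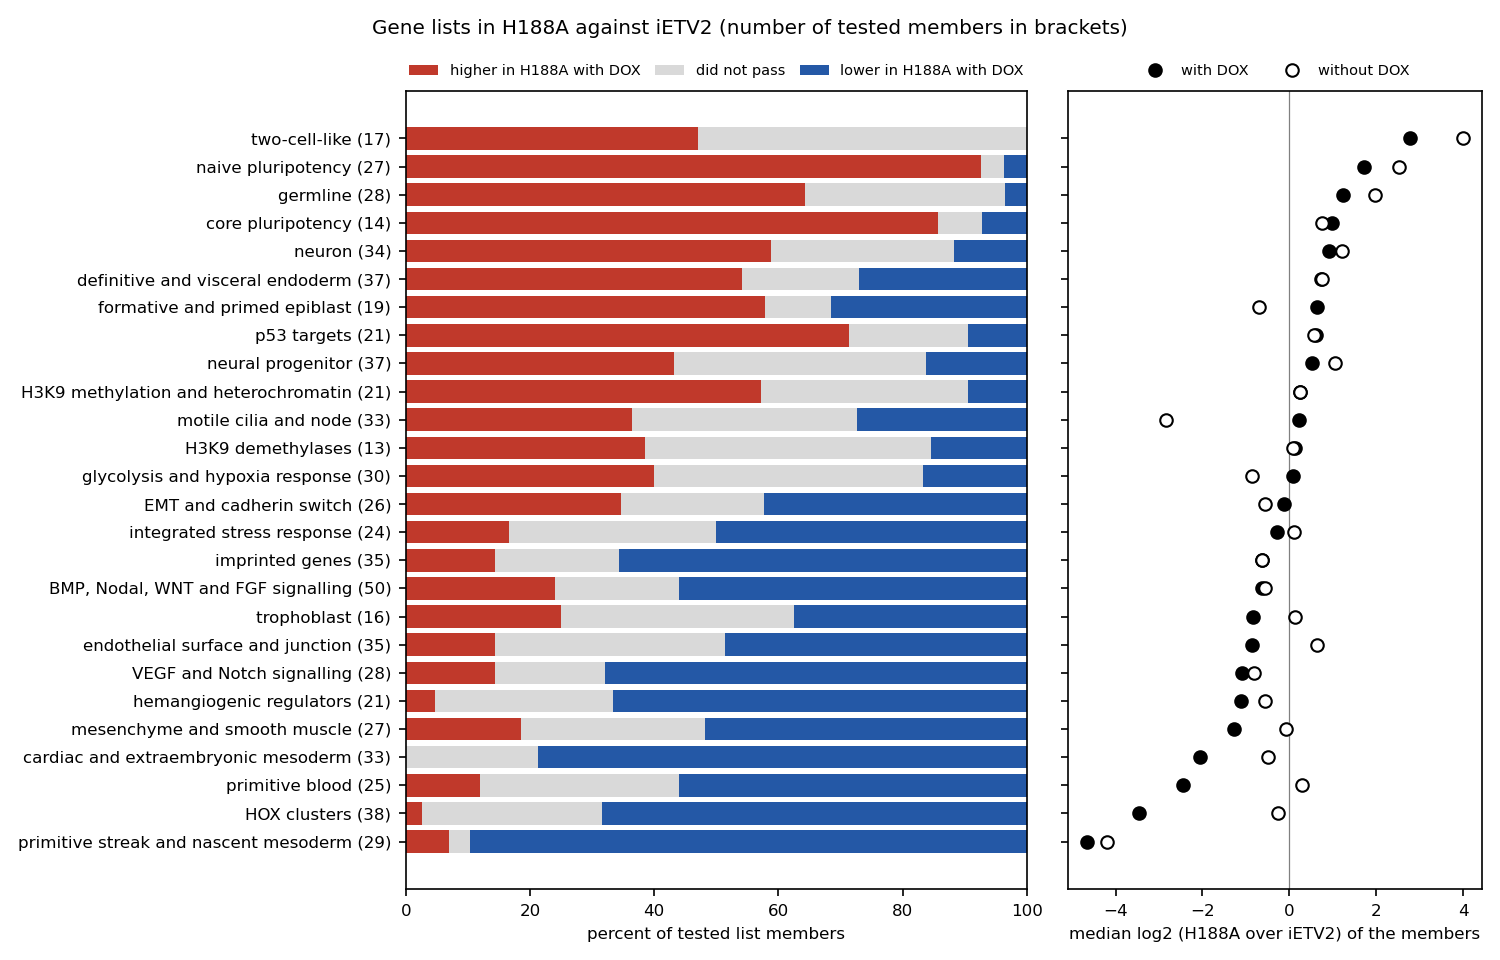
Left, percent of tested members of each of 26 gene lists that were higher, lower or did not pass in H188A against iETV2 with DOX; right, the median log2 difference of each list with DOX (filled) and without DOX (open). The streak, HOX, blood and cardiac lists have the lowest medians with DOX (-4.66, -3.46, -2.44 and -2.05), beside -0.04 over all tested genes.

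Primitive streak and nascent mesoderm was the list with the lowest median, -4.66. Of 29 tested members 26 were lower in H188A with DOX, 2 were higher and 1 did not pass. T (Brachyury), the T-box factor of the streak and notochord, was at 1.26, 1.66 and 1.26 CPM in H188A with DOX and at 695, 652 and 690 CPM in iETV2 with DOX (-8.84 ± 0.15, adjusted p = 3.99e-15). Mixl1, a homeobox factor of mesendoderm, was at 0.601, 1.02 and 0.515 CPM in H188A with DOX and at 325, 325 and 301 CPM in iETV2 with DOX (-8.73 ± 0.17). Each H188A library was below each iETV2 library for both genes.

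Msgn1, a factor of presomitic mesoderm, was at 0.0829, 0 and 0.0161 CPM in H188A with DOX and at 46.0, 43.0 and 46.5 CPM in iETV2 with DOX (-10.31 ± 0.32), the largest decrease among the genes named by rule. Evx1, a homeobox gene of the streak, differed by -9.28 ± 0.25, its antisense neighbour Evx1os by -9.22 ± 0.57 and Mesp1, a factor of cardiac and blood mesoderm, by -9.10 ± 0.44; the strand setting of the counting is not given, so Evx1 and Evx1os cannot be told apart. Tbx6 (-5.16), the WNT amplifier Rspo3 (-6.02) and Eomes (-3.36), at 21.1 ± 0.357 CPM in H188A with DOX and 232 ± 3.91 CPM in iETV2 with DOX, were lower too. This difference did not begin with DOX. Without DOX the list median was -4.20, with T at 0.357 CPM in H188A and 862 CPM in iETV2. The interaction was positive for T (2.46) and Rspo3 (0.92) and negative for Mixl1 (-1.47), Evx1 (-4.26) and Mesp1 (-3.44). Members that were higher were Fgf4 (2.14), an FGF ligand that stem cells make, and Lefty2 (0.49), an inhibitor of Nodal. Pdgfra, at 52.0 ± 30.5 CPM in H188A with DOX and 76.4 ± 2.40 CPM in iETV2 with DOX, did not pass (-0.46 ± 0.25), but passed at -1.07 without H188A replicate 1 (adjusted p = 3.31e-07 by edgeR) and at -0.44 with no filter on low counts (adjusted p = 0.0132).

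Genes of the mesoderm of heart and extraembryonic membranes were mostly lower in H188A with DOX. With DOX 26 of 33 cardiac and extraembryonic mesoderm genes were lower in H188A, 0 were higher and 7 did not pass (median -2.05), against 15 lower and 6 higher without DOX (median -0.50). Hand1, a bHLH factor of heart and extraembryonic mesoderm, was at 1.20, 1.14 and 1.01 CPM in H188A with DOX and at 115, 122 and 116 CPM in iETV2 with DOX (-6.63 ± 0.11, adjusted p = 3.99e-15). Without DOX both lines had little, 1.21 ± 0.0944 CPM in H188A and 0.804 ± 0.175 CPM in iETV2, and the interaction was -7.32. Foxf1, a forkhead factor of lateral mesoderm, was at 0.415, 0.220 and 0.403 CPM in H188A with DOX and at 26.8, 25.9 and 25.5 CPM in iETV2 with DOX (-6.13 ± 0.25).

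Msx1, a BMP-responsive homeobox gene, was at 1.16, 1.16 and 1.14 CPM in H188A with DOX and at 65.6, 57.5 and 59.9 CPM in iETV2 with DOX (-5.63 ± 0.10). Isl1, a factor of the second heart field and of motor neurons (-4.68), and Pmp22 (-4.36), a membrane protein, were lower. The groups did not overlap for any of these genes. Gata4, a factor of heart and endoderm, did not pass, with 95.04, 38.1 and 39.6 CPM in H188A with DOX and 91.8 to 96.7 CPM in iETV2 with DOX (-0.61 ± 0.24, adjusted p = 0.0596). Without H188A replicate 1 its difference was -1.20 and passed. Tnnt2 (-0.60) and Ahnak (0.05) did not pass. H188A replicate 1 was the highest of its group in 21 of the 33 members (63.6%), beside 33.3% of all tested genes. The interaction was negative for 17 of the 33 genes and positive for 3.

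HOX genes, which pattern the trunk along its axis, were low in both lines and lower in H188A with DOX. Of 38 tested members 26 were lower, 1 was higher and 11 did not pass (median -3.46), while without DOX 5 were lower and 2 higher (median -0.27). Hoxb1, the member with most RNA, was at 2.76, 1.66 and 1.498 CPM in H188A with DOX and at 85.5, 83.7 and 77.8 CPM in iETV2 with DOX (-5.31 ± 0.17, adjusted p = 1.34e-12). Hoxb3 (-3.64), Hoxb2 (-3.04) and Hoxa3 (-1.99) were lower as well. Hoxc13 was the higher one (1.80 ± 0.67, adjusted p = 0.0469), at 0.788 ± 0.307 CPM in H188A with DOX and 0.244 ± 0.172 CPM in iETV2 with DOX, and it did not pass without any 1 of the H188A libraries or iETV2 replicate 1 or 2, at 1.44 to 2.00. The whole list summed to 8.99 to 13.0 CPM in H188A with DOX and 159 to 162 CPM in iETV2 with DOX. The interaction was negative for 17 members and positive for 0. Without DOX the list summed to 37.6, 25.4 and 18.1 CPM in H188A and to 54.4 to 66.8 CPM in iETV2. The same H188A libraries held 598, 195 and 49.1 CPM of sensory receptor RNA. Whether these sums are linked, and what part that has in the interaction, was not tested.

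**Figure D3:**
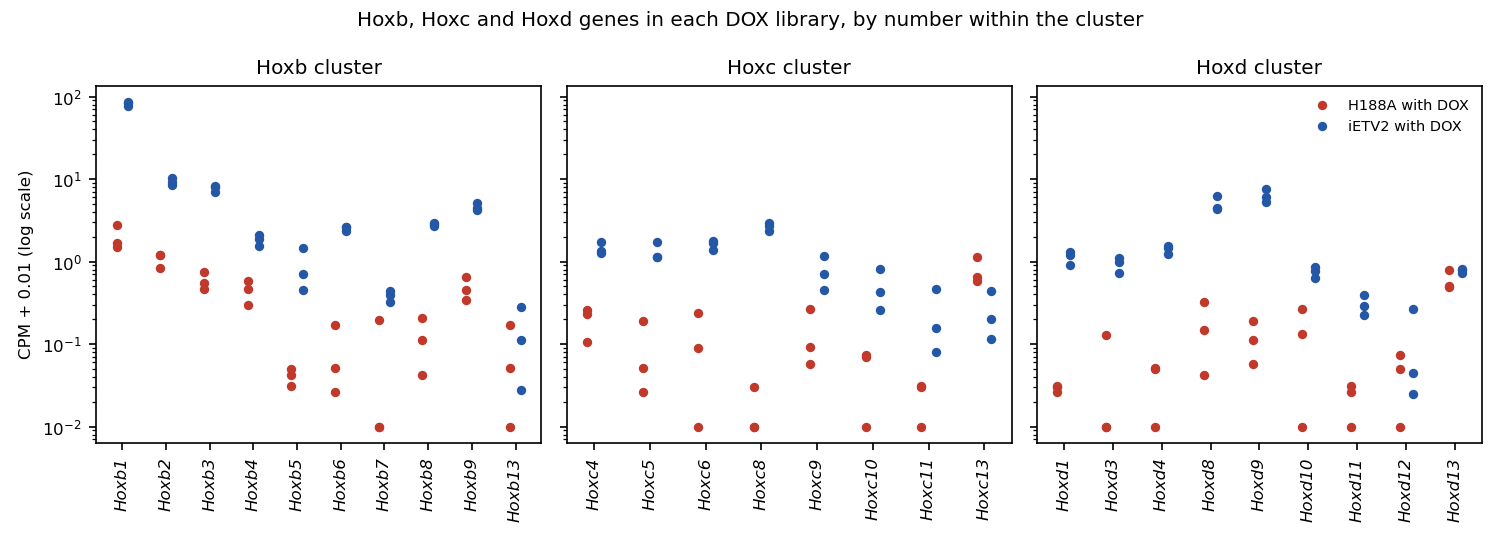
CPM plus 0.01 on a log axis for the tested genes of the Hoxb, Hoxc and Hoxd clusters, by number, in each library with DOX; points are libraries, with H188A at the left of iETV2 for each gene. Of the genes drawn, Hoxb1 has the highest values, 1.498 to 2.76 CPM in H188A and 77.8 to 85.5 CPM in iETV2, and Hoxd13 overlaps.

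Among BMP, Nodal, WNT and FGF signalling genes 28 of 50 were lower in H188A with DOX, 12 were higher and 10 did not pass (median -0.63). The libraries without DOX gave 29 lower and 15 higher (median -0.56), and the interaction was negative for 16 and positive for 11. Bmp4, the ligand that induces ventral mesoderm, was at 9.31, 13.5 and 15.0 CPM in H188A with DOX and at 56.2, 57.4 and 57.8 CPM in iETV2 with DOX (-2.08 ± 0.13, adjusted p = 2.34e-09). Without DOX the order was the reverse, 14.6 CPM in H188A and 6.11 CPM in iETV2 (1.31), and the interaction was -3.39. The ligands Fgf8 (0.637 ± 0.201 CPM in H188A with DOX and 51.8 ± 4.97 CPM in iETV2 with DOX, -6.22 ± 0.18) and Wnt5a (2.46 ± 0.613 CPM in H188A with DOX and 116 ± 9.57 CPM in iETV2 with DOX, -5.46 ± 0.17) and the WNT target Axin2 (-2.40) were lower. The members that were higher included Fgf4, the receptor Fgfr2 (1.94), the feedback inhibitors Spry1 (1.04) and Spry2 (1.19) and the WNT-removing enzyme Notum (1.28). The receptors Fgfr1 (-0.17) and Bmpr1a (0.02) and the WNT effector Tcf7 (-0.11) did not pass; Fgfr1 passed at -0.24 without iETV2 replicate 3.

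Pluripotency genes were higher in H188A with DOX. Of the 14 core genes 12 were higher, 1 was lower and 1 did not pass (median 0.97). The libraries without DOX gave 10 higher and 1 lower (median 0.76). Sox2, a core factor that neural progenitors share, was at 187, 196 and 206 CPM in H188A with DOX and at 44.0, 39.7 and 35.6 CPM in iETV2 with DOX (2.39 ± 0.10, adjusted p = 2.61e-11). Pou5f1 (Oct4) was at 416, 526 and 583 CPM in H188A with DOX and at 317, 256 and 344 CPM in iETV2 with DOX (0.83 ± 0.11), and Nanog at 135, 150 and 155 CPM in H188A with DOX and at 115, 110 and 118 CPM in iETV2 with DOX (0.46 ± 0.07). The core factors were thus present in all 6 libraries and did not overlap between the lines. The forkhead gene Foxd3 was at 26.8 ± 3.83 CPM in H188A with DOX and 1.98 ± 0.451 CPM in iETV2 with DOX (3.85 ± 0.15), and Utf1 (2.56), Dppa2 (2.19) and Dppa4 (1.60) were higher too. Tdgf1, the Nodal co-receptor Cripto, was lower (-0.74), and the RNA-binding protein gene Lin28a did not pass (0.19).

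Of 27 naive pluripotency genes, which mark the preimplantation-like state, 25 were higher, 1 was lower and 1 did not pass (median 1.72, and 2.52 without DOX). Esrrb, an orphan nuclear receptor, was at 239, 283 and 281 CPM in H188A with DOX and at 61.2, 55.4 and 54.7 CPM in iETV2 with DOX (2.32 ± 0.09). Klf4 was at 44.3, 28.8 and 30.6 CPM in H188A with DOX and at 6.59, 7.93 and 7.22 CPM in iETV2 with DOX (2.35 ± 0.15), with no overlap for either gene. Zfp42 (Rex1, 1.72), Dppa5a (1.64), Mreg (2.40) and Fgf4 (2.14) were higher too. The member that was lower was Tbx3, which mesoderm also uses, at 42.1 ± 0.708 CPM in H188A with DOX and 139 ± 11.9 CPM in iETV2 with DOX (-1.63 ± 0.09); without DOX it was at 46.0 CPM in H188A and 5.57 CPM in iETV2. Lifr, the LIF receptor, did not pass (0.17).

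Formative and primed epiblast genes, those of the state between naive cells and gastrulation, were 11 of 19 higher, 6 lower and 2 not past the test (median 0.64, and -0.69 without DOX). Otx2, a head and epiblast factor, was at 145, 155 and 156 CPM in H188A with DOX and at 58.9, 57.1 and 57.8 CPM in iETV2 with DOX (1.48 ± 0.08, adjusted p = 7.4e-10). Fgf5, an epiblast ligand, was at 54.7, 69.0 and 68.1 CPM in H188A with DOX and at 45.2, 44.4 and 41.4 CPM in iETV2 with DOX (0.64 ± 0.09). The lines were close for Otx2 without DOX, at 150 CPM in H188A and 140 CPM in iETV2, and reversed for Fgf5, at 63.3 CPM in H188A and 136 CPM in iETV2. Pou3f1 (Oct6) was at 63.4, 74.7 and 82.7 CPM in H188A with DOX and at 5.87, 5.00 and 4.96 CPM in iETV2 with DOX (3.89 ± 0.13). Sall2 (1.84), Zic5 (1.93) and Zic2 (1.38) were higher. Igfbp3 (-3.22), the activin inhibitor Fst (-3.14), N-cadherin Cdh2 (-2.39), Etv4 (-1.11) and Lef1 (-0.89) were lower. The interaction was positive for 13 members and negative for 2.

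Among neural genes the regulators Sox1 and Pax6 were higher. Sox1, the earliest specific factor of neural plate, was at 37.3, 23.8 and 24.8 CPM in H188A with DOX and at 0.879, 1.14 and 0.745 CPM in iETV2 with DOX (5.03 ± 0.20, adjusted p = 1.89e-11). Without DOX it was at 28.9 CPM in H188A and 3.42 CPM in iETV2, and the interaction was 1.90. Pax6, a factor of forebrain and eye, was at 10.99, 9.23 and 9.20 CPM in H188A with DOX and at 0.914, 1.20 and 2.1998 CPM in iETV2 with DOX (2.88 ± 0.26), with no overlap. Of 37 neural progenitor genes 16 were higher, 6 were lower and 15 did not pass (median 0.51). Without DOX the counts were also 16 and 6 (median 1.05). Beside the counts with DOX, 22.4% of all tested genes were higher and 17.5% lower, and the list was not tested against these shares. En1 (4.21), Hesx1 (2.82) and Sox21 (2.10) were higher, Sox9 (-1.58), Nes (-0.44), Fabp7 (-1.15), Dbx1 (-2.48) and Pax7 (-1.98) were lower, and Msi1 (0.09), Pax3 (-0.07) and Zic1 (0.20) did not pass. The list median was 0.06 without H188A replicate 1, 0.27 without iETV2 replicate 1 and 1.03 without iETV2 replicate 3. H188A replicate 1 was the highest of its group in 24 of the 37 members (64.9%), beside 33.3% of all tested genes. The list summed to 282, 230 and 225 CPM in H188A with DOX and to 198 to 205 CPM in iETV2 with DOX.

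Genes of differentiated neurons were 20 of 34 higher, 4 lower and 10 not past the test (median 0.91, and 1.22 without DOX). Tubb3, a tubulin of neurons, was at 26.3, 32.2 and 35.6 CPM in H188A with DOX and at 5.87, 5.28 and 5.89 CPM in iETV2 with DOX (2.56 ± 0.10). Neurod1 (3.61), Elavl3 (3.87) and the intermediate filaments Nefh (2.38) and Ina (2.16) were higher, and Isl1 (-4.68), Gad1 (-2.47) and Chrna3 (-0.67) were lower. Tubb3, Neurod1 and Nefh differed by 2.60, 3.42 and 2.28 without DOX, and no interaction passed for them.

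The endoderm list was uneven and rested in part on 1 library. Of 37 definitive and visceral endoderm genes 20 were higher in H188A with DOX, 10 were lower and 7 did not pass (median 0.72). The libraries without DOX gave 18 higher and 11 lower (median 0.75). When H188A replicate 1 was left out, the counts with DOX were 18 and 11 and the median 0.66. The endocytic receptors of visceral endoderm led the increases. Cubn, cubilin, was at 656, 323 and 315 CPM in H188A with DOX and at 9.52, 10.96 and 11.4 CPM in iETV2 with DOX (5.44 ± 0.27, and 4.99 without replicate 1). Lrp2, megalin, was at 795, 572 and 558 CPM in H188A with DOX and at 70.3, 70.4 and 68.1 CPM in iETV2 with DOX (3.30 ± 0.12). Dab2, an endocytic adaptor, was at 385, 179 and 175 CPM in H188A with DOX and at 18.6, 20.9 and 18.7 CPM in iETV2 with DOX (3.76 ± 0.24). Replicate 1 was the highest H188A library for all 3 genes, and the other two still stood above the iETV2 libraries. Their partner Amn (4.26) and the transport protein Ttr (4.14) were higher too.

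Some markers of definitive endoderm and anterior signalling had the other sign, while Sox17 did not pass, as given above. Cer1 (-7.63), an inhibitor of Nodal and BMP, Foxa1 (-3.998), Dkk1 (-3.56), Cxcr4 (-3.27) and Krt8 (-1.81) were lower in H188A with DOX. The list summed to 7463, 3914 and 3937 CPM in the H188A libraries with DOX and to 1913 to 1970 CPM in iETV2 with DOX. H188A replicate 1 was the highest of its group in 28 of the 37 members (75.7%), beside 33.3% of all tested genes. What sets this library apart was not tested.

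**Figure D4:**
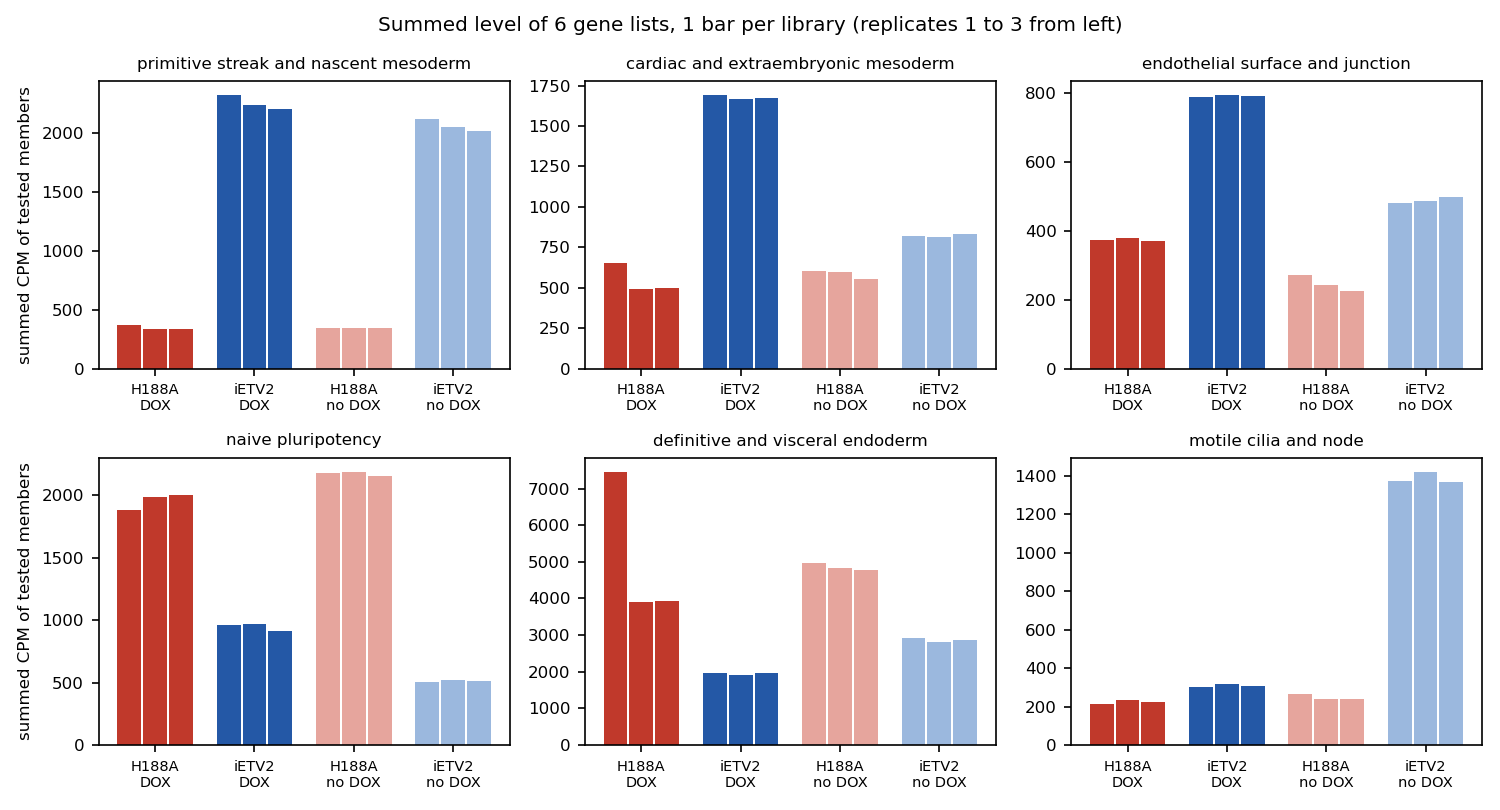
Summed CPM of the tested members of 6 gene lists, 1 bar per library, with H188A with DOX at the left of iETV2 with DOX and the libraries without DOX after them. The first H188A bar of the endoderm list stands at 7463 CPM, beside 3914 and 3937 CPM in the other two libraries of its group, and the streak list is at 334 to 367 CPM in H188A with DOX and 2204 to 2323 CPM in iETV2 with DOX.

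The largest increases named by rule included Srgn, Habp2, Hs3st1, Cubn, Aqp8, Sox1, Tcf23, Tnfsf11 and Nostrin, with log2 differences of 4.62 to 5.77. Srgn was at 162, 52.7 and 52.8 CPM in H188A with DOX and at 1.93, 1.70 and 1.58 CPM in iETV2 with DOX (5.77 ± 0.41, and 5.00 without H188A replicate 1). Aqp8, a water channel, was at 44.4, 14.4 and 14.3 CPM in H188A with DOX and at 0.879, 0.484 and 0.582 CPM in iETV2 with DOX (5.34 ± 0.48, and 4.56 without it). Replicate 1 was the highest by far for both. Groups that do not overlap were a condition of the rule that named these largest increases. Each of these was also higher in H188A without DOX, where Srgn was at 64.2 CPM in H188A and 0.185 CPM in iETV2. Tnfsf11, the ligand RANKL, was at 5.49, 7.57 and 6.47 CPM in H188A with DOX and at 0.176, 0.352 and 0.291 CPM in iETV2 with DOX (4.64 ± 0.26). Defa30, a defensin with near-identical copies, was among the 10 largest decreases (1 count over the H188A libraries with DOX and 1427 over those of iETV2), and its single value is uncertain.

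Germline genes were 18 of 28 higher, 1 lower and 9 not past the test (median 1.23, and 1.98 without DOX). Hormad1, a protein of meiotic chromosome axes, was at 9.97, 12.4 and 12.8 CPM in H188A with DOX and at 0.668, 0.982 and 1.182 CPM in iETV2 with DOX (3.73 ± 0.19). The meiotic cohesin Smc1b (3.40), Tex19.1 (2.80) and Sycp3 (1.70) were higher, and Spo11, which cuts DNA in meiosis, was lower at 0.109 CPM in H188A with DOX and 0.728 CPM in iETV2 with DOX. Two-cell-like genes, expressed at the first cleavage and in rare stem cells, were 8 of 17 higher, 0 lower and 9 not past the test (median 2.78, and 4.00 without DOX). The median with DOX was 2.23, 2.24 and 4.01 without iETV2 replicate 1, 2 or 3. Zscan4a, with 191 counts over the H188A libraries with DOX and 3 over those of iETV2, and Zscan4c (1.07 ± 0.711 CPM in H188A with DOX and 0.0764 ± 0.0535 CPM in iETV2 with DOX) belong to a family of near-identical copies, so single values are uncertain.

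Among the demethylase relatives of KDM4A the calls went both ways. Among 13 H3K9 demethylase genes 5 were higher, 2 were lower and 6 did not pass (median 0.14, and 0.09 without DOX). Beside this, 51.8 to 60.6% of all genes of at least 5 CPM passed on each autosome. Whether the list differs from that share was not tested. Kdm4c was at 107, 104 and 104 CPM in H188A with DOX and at 58.1, 58.2 and 55.0 CPM in iETV2 with DOX (0.97 ± 0.08, adjusted p = 5.39e-08), without overlap. Kdm4b was at 34.9, 37.7 and 36.8 CPM in H188A with DOX and at 48.1, 45.7 and 43.9 CPM in iETV2 with DOX (-0.24 ± 0.07, adjusted p = 0.0119), again without overlap. Kdm3a, which removes the lower methylation states (0.76), the corepressor Hr (1.84), Riox2 (0.26) and Jmjd1c (0.25) were higher, Phf2 (-0.23) was lower, and Kdm1a (0.14) and Kdm3b (0.14) did not pass. Without H188A replicate 1 the counts were 3 higher and 0 lower, with Kdm4b at -0.22, Phf2 at -0.29, Jmjd1c at 0.24 and Riox2 at 0.27. The lower count was also 0 without iETV2 replicate 1 or 2, and 1 without H188A replicate 2 or 3.

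The list for H3K9 methylation and heterochromatin also held factors of DNA methylation. Of its 21 tested members 12 were higher, 2 were lower and 7 did not pass (median 0.24, and 0.25 without DOX). Without H188A replicate 1 the counts were 7 and 1. Dnmt3l, the cofactor of de novo DNA methylation, was at 83.1, 84.9 and 84.6 CPM in H188A with DOX and at 13.3, 12.6 and 14.9 CPM in iETV2 with DOX (2.73 ± 0.07, and 3.90 without DOX). Zfp57, a zinc finger protein that protects imprints, was at 135, 144 and 141 CPM in H188A with DOX and at 85.3, 80.9 and 80.5 CPM in iETV2 with DOX (0.86 ± 0.06). Hells (0.73), Cbx1 (0.61) and the corepressor Trim28 (0.55) were higher, the HP1 protein gene Cbx5 (-0.39) and the histone chaperone Daxx (-0.25) were lower, and Ehmt1 (0.06), Dnmt1 (0.03) and Pphln1 (-0.07) did not pass. The call of Daxx ended without H188A replicate 1 (-0.24) or iETV2 replicate 1 (-0.22).

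Imprinted genes, expressed from 1 parental allele, were 23 of 35 lower, 5 higher and 7 not past the test (median -0.62, and -0.64 without DOX). Peg3, a paternally expressed zinc finger gene, was at 165, 139 and 131 CPM in H188A with DOX and at 1477, 1567 and 1398 CPM in iETV2 with DOX (-3.26 ± 0.10, adjusted p = 1.89e-12). Its neighbours Usp29 (-3.38) and Zim1 (-4.39) were lower as well, and so were the growth-restricting genes Phlda2 (4.33 ± 0.607 CPM in H188A with DOX and 51.0 ± 2.56 CPM in iETV2 with DOX, -3.46 ± 0.12) and Cdkn1c (-1.44). H19 (0.94), Snrpn (1.00), Dio3 (2.13), Magel2 (0.50) and Impact (0.28) were higher; Impact did not pass without H188A replicate 1 (0.26). Meg3 (-0.10), Rian (-0.02) and Copg2 (-0.09) did not pass. H188A replicate 1 was the highest of its group in 26 of the 35 members (74.3%), beside 33.3% of all tested genes.

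In several lists iETV2 without DOX was the group that stood apart. Motile cilia and node genes, those of the organ that sets left and right, were 12 of 33 higher in H188A with DOX, 9 lower and 12 not past the test (median 0.22), but 2 higher and 28 lower without DOX (median -2.84). Their sum was 211.4 to 234.1 CPM in H188A with DOX, 300.1 to 318.9 CPM in iETV2 with DOX, 240 to 264 CPM in H188A without DOX and 1365 to 1420 CPM in iETV2 without DOX. The interaction was positive for 24 members and negative for 0. Pkd1l1, a channel subunit of node cilia, was at 1.74, 2.50 and 2.40 CPM in H188A with DOX and at 54.3, 60.7 and 52.7 CPM in iETV2 with DOX (-4.56 ± 0.18), and at 365 CPM in iETV2 without DOX. Cfap126 (-2.23), the ciliary regulator Rfx3 (-0.88) and Nodal (-0.70) were lower, while its relative Rfx2 (1.72), Cfap43 (2.18), Rsph4a (1.38), Dnaic1 (1.35) and Tppp3 (1.01) were higher. Dnah5 (0.20) and Dand5 (-0.24) did not pass.

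Glycolysis and hypoxia genes showed a like pattern with smaller differences. With DOX 12 of 30 were higher in H188A, 5 were lower and 13 did not pass (median 0.09, and 0.14 without iETV2 replicate 1), and without DOX 4 were higher and 25 lower (median -0.85). The calls with DOX were not tested against the share of all genes of at least 5 CPM, 51.8 to 60.6% per autosome. Slc2a1, the main glucose transporter, was at 446, 491 and 482 CPM in H188A with DOX and at 307, 275 and 303 CPM in iETV2 with DOX (0.77 ± 0.07), and at 470 CPM in H188A and 928 CPM in iETV2 without DOX. Ldha, lactate dehydrogenase, was at 325, 378 and 380 CPM in H188A with DOX and at 591, 548 and 615 CPM in iETV2 with DOX (-0.60 ± 0.08). Slc2a3 (0.87), Pfkm (0.92), Bnip3 (0.63) and Hk1 (0.58) were higher, Ddit4 (-1.01), Ndrg1 (-0.45), Egln3 (-0.41) and Vegfa (-0.34) were lower, and Gapdh (0.03), Eno1 (-0.06) and Aldoa (-0.02) did not pass. The interaction was positive for 24 members and negative for 0.

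The 2 line contrasts compare the means of different libraries, but share 1 fit, with its filter and its estimate of the spread. Of the genes called with DOX 5500 were called without DOX in the same direction, 66.4% of the calls with DOX and 64.0% of those without, and 333 had opposite directions. Among the 153 genes higher by a log2 difference of 3 or more with DOX, 140 (91.5%) were also higher without DOX and the interaction passed for 37. Among the 476 lower by that much, 202 (42.4%) were also lower without DOX and it passed for 201. Of all 20771 tested genes 4381 were higher and 4216 lower without DOX, and the interaction passed for 16.2%. A further 2455 genes were called with DOX and not without, of which the interaction passed for 828.

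**Figure D5:**
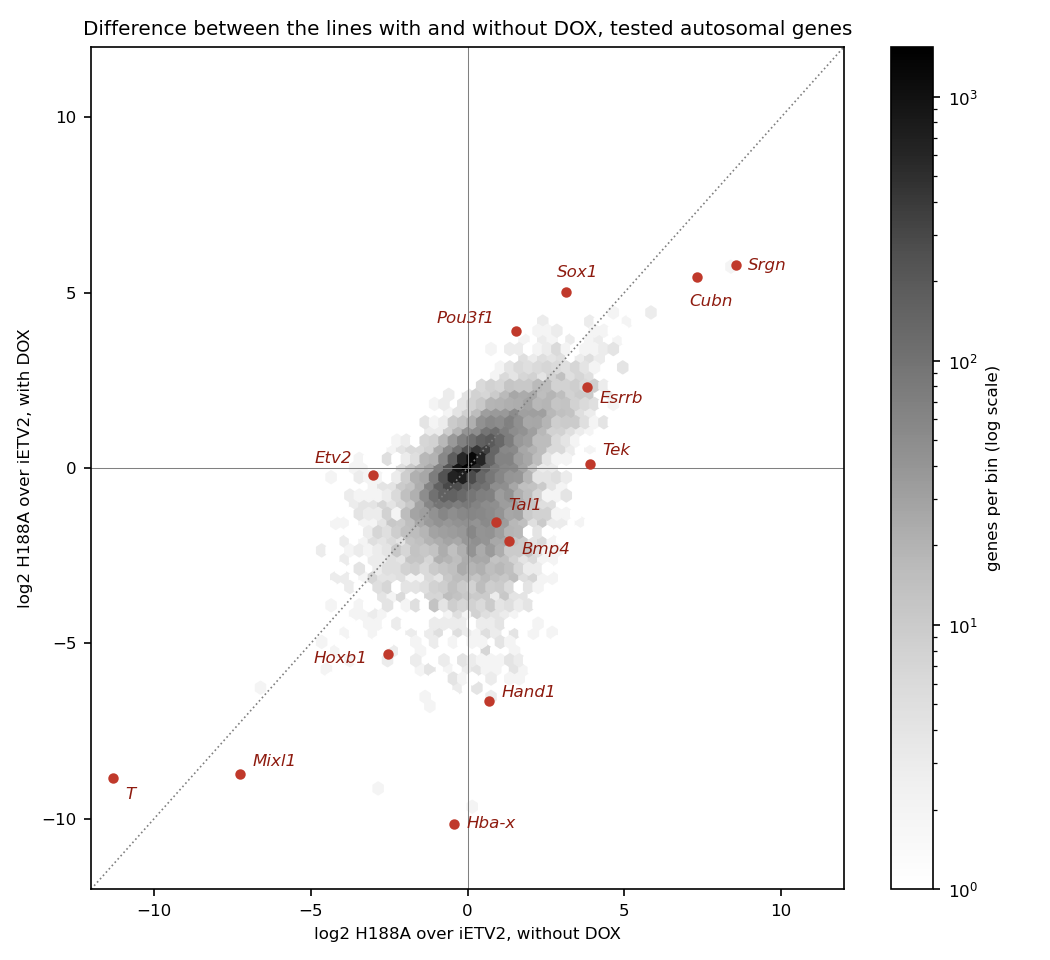
Log2 difference of H188A over iETV2 with DOX (vertical) against the same without DOX (horizontal) for the tested autosomal genes; shading gives genes per bin on a log scale and red points mark named genes. Sox1, Cubn, Srgn, T and Mixl1 lie far from 0 on both axes, while Hba-x (-10.14 and -0.42) and Hand1 (-6.63 and 0.69) are far from 0 with DOX alone.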

How the data were processed

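RNA of 12 libraries was used: the H188A line with DOX, iETV2 with DOX, and both lines without DOX, 3 libraries each; other samples were not analysed here. For every library the authors deposited untransformed counts for 55487 Ensembl genes; 55141 matched a symbol and 36164 an autosomal position (RefSeq, GRCm38.p6). Per the submitters' processing notes the tools used include DESeq2 1.18.1, HTSeq 2.0.3 and featureCounts 2.0.6, alongside StringTie 2.2.1, Picard 3.0.0 and the aligner STAR 2.7.10b. Those notes name mm10 and GRCm38 as builds. The program behind the counts and its handling of strand are not given in the sources used here, so antisense, overlapping and near-identical genes are uncertain.

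All 12 libraries were fitted together with 4 group means in edgeR 4.0.16 (R 4.3.3, limma 3.58.1), after filterByExpr by group and TMM scaling, with the two-sided quasi-likelihood F test and Benjamini-Hochberg adjustment over all 25516 tested genes at 0.05; the 20771 autosomal ones are reported. The other 4745 genes are on X, Y or the mitochondrial genome or have no single position. SE is the log2 difference divided by the square root of F. CPM use library totals without TMM factors, so a log2 difference can depart slightly from a ratio of CPM. Counting error is small at 40334911 to 68970038 counts per library, and intervals of count ratios cover counting error only. Replicates differed by more than sampling noise, so none were merged. Same-numbered libraries were checked for pairing (correlations of 0.184, -0.235 and -0.259) and were not treated as pairs. The script was tested on simulated data. DESeq2 1.42.0 was an alternative test; Python 3.11.15 with pandas 2.3.3, scipy 1.17.1 and matplotlib 3.10.9 was used for tables and figures.

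The members and the 26 gene lists were chosen with earlier results of these data known. Genes were named by rule: a panel of 40, the 10 largest differences per direction (adjusted p under 0.05, at least 2 CPM on average over the DOX libraries, groups not overlapping, an informative symbol), and up to 5 members per direction and 3 that did not pass for each list. Some genes that the rule picks are not reported here. Alternatives were the 6 DOX libraries alone, a replicate block, other size factors, DESeq2, other low-count filters and leaving out single libraries.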

Additional observations from a re-analysis of the deposited data

Results flagged for a closer look

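The line difference depended on DOX for 29 of the 39 autosomal genes of the panel, by the interaction test in edgeR; values are the log2 difference with DOX minus that without DOX. It was negative for 18, meaning that H188A stood lower against iETV2 with DOX than without. Of these the embryonic globins Hbb-y (-10.48), Hba-x (-9.72) and Hbb-bh1 (-9.64) and the mesoderm genes Hand1 (-7.32), Foxf1 (-4.25), Bmp4 (-3.39) and Mixl1 (-1.47) were also lower in H188A with DOX. The vessel genes Sox7 (-4.99), Tek (-3.79), Cdh5 (-3.29), Eng (-2.34) and Pecam1 (-2.16) and the blood regulators Runx1 (-2.98), Tal1 (-2.44), Lyl1 (-2.37) and Lmo2 (-1.29) followed, with the pluripotency genes Esrrb (-1.48) and Zfp42 (-1.30).

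It was positive for 11: Etv2 itself (2.81), T (2.46), Sox18 (2.38), Sox1 (1.90), Fgf5 (1.69), Otx2 (1.33), Flt1 (1.20), Sox17 (1.176), Kdm4b (0.60), Pou5f1 (0.53) and Kdm4c (0.40). The Etv2 levels without DOX were 0.376 CPM in H188A and 2.93 CPM in iETV2.

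Outside the autosomes, Xist averaged 48.7 CPM in H188A with DOX and was at 3.47 to 4.82 CPM in iETV2 with DOX, while Y-linked RNA was at 1.58 to 2.38 CPM in H188A with DOX and averaged 157 CPM in iETV2 with DOX. The part of this difference in the results was not tested.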

How the results depend on the processing

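The number of autosomal genes called with DOX was 8288, and 6370 (no filter on low counts) to 8667 (at least 1 CPM in 3 libraries) over 14 alternatives. Leaving out single libraries gave 6653 to 8631. The highest, 8631, came without replicate 1 of H188A without DOX, an alternative chosen after seeing the data because of its sensory receptor counts (598 CPM). With the replicate block it was 7792, with DESeq2 8564 and with the 6 DOX libraries alone 8609. Without DOX it was 8597 (6785 to 9064, and 7753 to 8561 without single libraries), and the interaction 3373 (2399 to 4301, and 2399 to 3024). Of the calls with DOX 53 to 58.2% were higher in H188A; without DOX 51% were, and 38.5% with no filter. Over 296 named genes and 4135 values, 4023 kept their side of the threshold, 54 no longer passed (16 genes), and 58 newly passed (23 genes). The sign changed in 50 values of 20 genes, 0 of which passed in either fit. The cause of these changes was not tested. The replicate numbers do not pair the libraries, and the replicate block ended 1 named call, that of Prl2c2, and added 1, that of Gata4. Among list medians, two-cell-like moved to 4.10 with at least 1 CPM in 3 libraries and 4.01 without iETV2 replicate 3 (2.78 with all libraries), and trophoblast to 0.01 without that replicate (-0.84). Low levels limit the HOX and two-cell-like lists, and line, experiment and sex-chromosome content cannot be told apart.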

Other observations

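Matrix and contractile genes of mesenchyme were among those lower in H188A with DOX. Of 27 mesenchyme and smooth muscle genes 14 were lower, 5 were higher and 8 did not pass (median -1.27, and -0.08 without DOX). Fn1, the matrix protein fibronectin, was at 843, 948 and 905 CPM in H188A with DOX and at 4844, 5166 and 4419 CPM in iETV2 with DOX (log2 -2.33 ± 0.09). Without DOX the lines differed by -0.12 for Fn1, and the interaction was -2.21. Of 26 genes of the epithelial-mesenchymal list 11 were lower, 9 were higher and 6 did not pass (median -0.12, and -0.57 without DOX). Cdh11 (-3.87), Cdh2 (-2.39) and Vim (-1.47), of mesenchymal cells, were lower. P-cadherin Cdh3 (1.54), the splicing factor Esrp2 (1.41), Grhl2 (1.33) and Epcam (0.98), of epithelia, were higher.

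Genes of the p53 response were 15 of 21 higher, 2 lower and 4 not past the test (median 0.62, and 0.56 without DOX). Mdm2, the ligase that degrades p53, was at 202, 201 and 210 CPM in H188A with DOX and at 115, 114 and 112 CPM in iETV2 with DOX (0.94 ± 0.08), and Phlda3 differed by 1.32. Cdkn1a, the cell cycle inhibitor p21, was lower by a little (-0.23), a call that ended without H188A replicate 2 (-0.19), H188A replicate 3 (-0.21) or iETV2 replicate 1 (-0.19). Genes of the integrated stress response were 12 of 24 lower, 4 higher and 8 not past the test (median -0.29, and 0.10 without DOX). Vldlr (-3.32), a lipoprotein receptor, and the amino acid enzymes Shmt2 (-0.996), Asns (-0.97) and Psat1 (-0.74) were lower, while Atf3 (0.61) was higher and Atf4 (-0.10) did not pass. Trophoblast genes were 6 of 16 lower, 4 higher and 6 not past the test (median -0.84, and 0.14 without DOX). With DOX but without iETV2 replicate 3 the median was 0.01. Cdx2 (-6.86), Gata3 (-3.32) and Tfap2a (-2.03), which mesoderm or ectoderm also use, were lower, and Wnt7b (2.43) and Tfap2c (1.29) were higher.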
